A study of Mus musculus with 13 samples.

Results

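Aldehyde dehydrogenases oxidize aldehydes to carboxylic acids, and 10 genes of this enzyme family were examined in 4T1 mammary tumors from mice given cyclophosphamide (CPA): ALDH1A1, ALDH1A2, ALDH1A3, ALDH1A7, ALDH1B1, ALDH2, ALDH3A1, ALDH3A2, ALDH3B1 and ALDH7A1, as the deposited table spells the mouse genes. They were chosen by name, with earlier results of these data known. All 10 of 10 were found among 24170 genes in the table. Another 10 aldehyde dehydrogenases in the table served for comparison.

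CPA is a prodrug. Cytochromes P450, mostly in the liver, hydroxylate it, and the product opens to aldophosphamide, which either breaks down to acrolein and the DNA alkylator phosphoramide mustard or is oxidized by an aldehyde dehydrogenase to inactive carboxyphosphamide. Aldh1a1 and Aldh3a1 are the family members best known for this last step. Other members act mainly on other aldehydes, such as retinal, acetaldehyde, fatty aldehydes and an intermediate of lysine breakdown.

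4T1 is a mouse mammary carcinoma line. Female mice of the BALB/c strain, from which the line came, carried the tumors in a mammary fat pad. They were injected with the PBS vehicle or with CPA at 130 mg/kg, on a metronomic schedule of 1 injection every 6 days. The dose is that of the sample labels, and a list of libraries in the study's supplement names a slightly higher one. There were 13 libraries of polyadenylated RNA, each made from RNA of 2 to 3 tumors, so that a library was a pool and not a mouse. The vehicle, 2-cycle and 4-cycle groups had 3 pools each. The 7-cycle group had 2 pools, as did the regrowth tumors, for which CPA was stopped after 4 cycles and the tumors grew for 18 more days. Mice given vehicle or 2 cycles were 10 to 11 weeks old, those given 4 cycles were 12 to 13 weeks old, and those of the 7-cycle and regrowth groups were 14 to 15 weeks old. Vehicle tumors of the later ages were not among the groups, so the number of cycles and the age of the mice cannot be told apart beyond 2 cycles.

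The values were the authors' group FPKM, read fragments scaled to transcript length and to library size, with 1 value per gene and group. These columns give no spread between pools, no test between groups was run on them, and every difference given here is a description of these 5 values. A difference is log2((FPKM + 0.1)/(FPKM + 0.1)), where the added 0.1 FPKM shrinks the differences of genes at low levels. A gene was counted as past 2-fold when this difference was at least 1 in size and the higher group reached 1 FPKM or more. The table gives no count of fragments behind a value, so the counting error of the low levels is not known.

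Summed levels of cell type markers differed between the groups. Epithelial markers, which the carcinoma cells should carry, summed to 813 FPKM in vehicle tumors, 761 and 914 FPKM in the 2-cycle and 4-cycle groups, 1251 FPKM in the 7-cycle group and 1175 FPKM in the regrowth group. The summed fibroblast markers were lower in each treated group, neutrophil, erythroid and adipocyte markers were higher during CPA treatment, liver markers were at 72.6 FPKM in the 4-cycle group and at 33.1 FPKM in the regrowth group against 7.59 to 11.2 FPKM elsewhere, and skeletal muscle markers were at 445 FPKM after 7 cycles against 6.87 to 77.0 FPKM elsewhere. In whole tumors, fewer cells of a type and less RNA per cell cannot be told apart.

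ALDH2, ALDH3A2, ALDH7A1 and ALDH3B1 were the 4 most abundant members in each of the 5 groups, and the other 6 members lay at or below 1.70 FPKM. ALDH3A1, ALDH1A1, ALDH1A3 and ALDH1A7 were lowest in vehicle tumors and higher in all 4 treated groups. ALDH1A2 had the opposite pattern, with its highest level in vehicle tumors. ALDH1B1 and ALDH3B1 were higher after 2 and 4 cycles, and ALDH3B1 stayed higher after 7 cycles while ALDH1B1 did not.

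**Figure D1:**
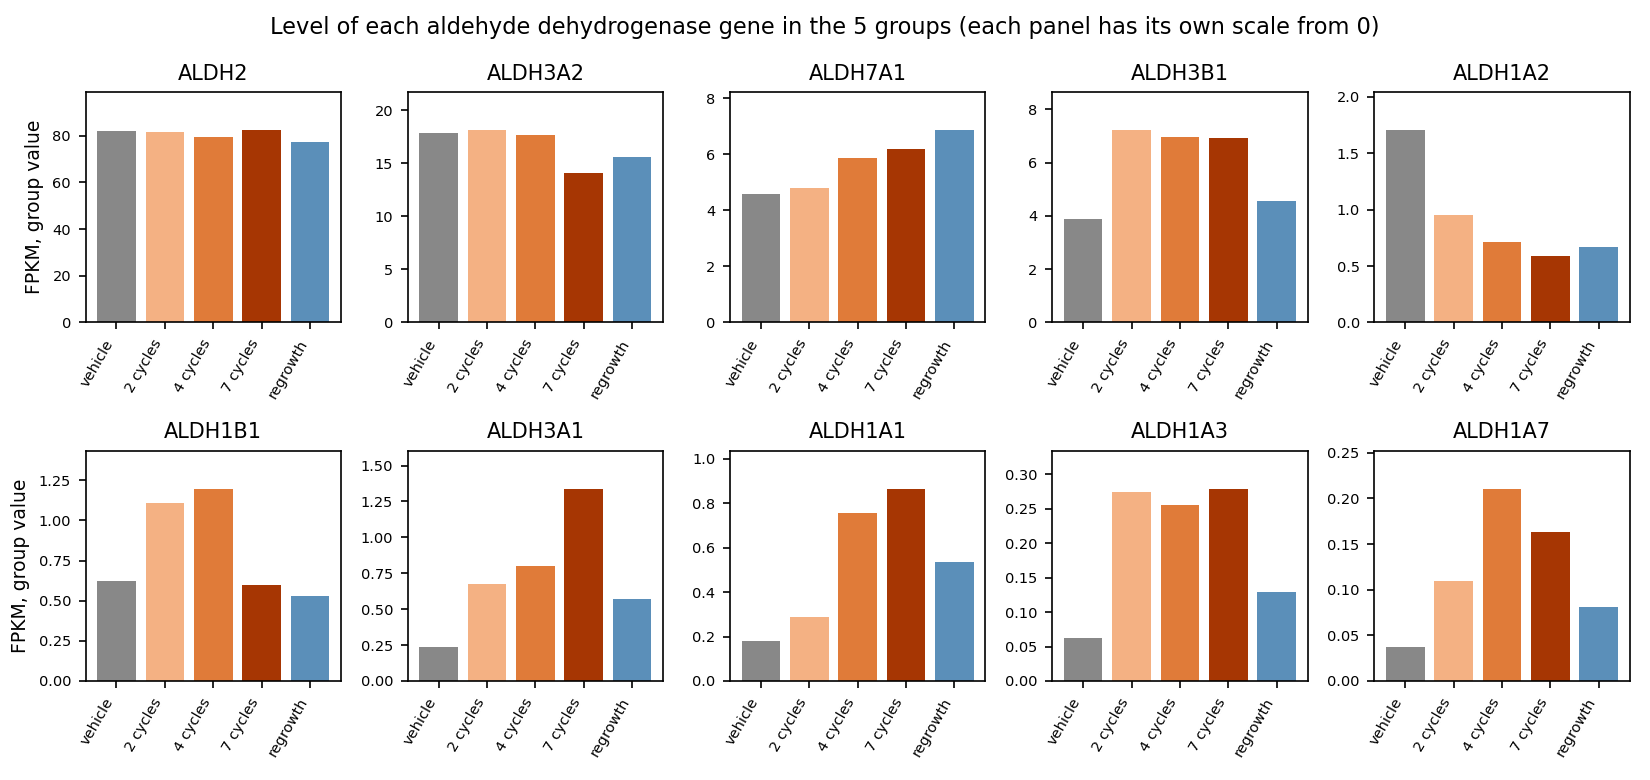
Level of each of the 10 aldehyde dehydrogenase genes (y axis, FPKM, 1 group value per bar, with a scale from 0 in each panel) in vehicle tumors, after 2, 4 and 7 CPA cycles and in regrowth (x axis), ordered by level in vehicle tumors. ALDH2 stays between 77.4 and 82.2 FPKM, ALDH1A2 is highest in vehicle tumors at 1.70 FPKM, and ALDH3A1 is highest after 7 cycles at 1.34 FPKM.

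Aldh1a1 (ALDH1A1; mm9 chr19:20676472-20717952), a cytosolic enzyme that oxidizes retinal as well as aldophosphamide, had 0.178 FPKM in vehicle tumors, 0.286 after 2 cycles, 0.755 after 4 cycles, 0.864 after 7 cycles and 0.534 in regrowth. The level was higher in each of the 3 CPA groups with more cycles, and the regrowth value lay between those of 2 and 4 cycles. The difference from vehicle was 0.47 after 2 cycles, 1.62 after 4 cycles, 1.80 after 7 cycles and 1.19 in regrowth on the log2 scale. ALDH1A1 thus lay beyond 2-fold in 3 of the 4 comparisons with vehicle, but below 1 FPKM in every group, so it did not enter the counts that required 1 FPKM.

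Aldh1a7 (ALDH1A7; mm9 chr19:20767443-20802046) is a rodent gene next to Aldh1a1 that encodes a closely related cytosolic enzyme. It was the least abundant member, with 0.0375 FPKM in vehicle tumors, 0.109 after 2 cycles, 0.210 after 4 cycles, 0.163 after 7 cycles and 0.0810 in regrowth. The difference from vehicle was 1.17 after 4 cycles and 0.94 after 7 cycles on the log2 scale, both reduced by the added 0.1 FPKM, which is larger than the vehicle level itself. The transcripts of Aldh1a1 and Aldh1a7 were 89.0% identical, and 151 of the 2017 windows of 50 bases in the Aldh1a7 transcript also occurred in that of Aldh1a1. Reads from such windows cannot be assigned to either gene with certainty.

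Both genes were lowest in vehicle tumors and higher after 4 than after 2 cycles. For ALDH1A7 this order rests on values of 0.210 FPKM or less, whose counting error is not known. The promoters of the 2 genes are shown because they share a stretch close to the start. The RefSeq entries (GRCm38.p6) give the 150 bases before the start of Aldh1a1, chr19:20601818-20601967 on the plus strand, and of Aldh1a7, chr19:20727557-20727706 on the minus strand, each printed 5′ to 3′ on the strand of its gene. Capitals mark the longest run that both hold, 65 bases from position -94 to -30 counted from the start.
Aldh1a1: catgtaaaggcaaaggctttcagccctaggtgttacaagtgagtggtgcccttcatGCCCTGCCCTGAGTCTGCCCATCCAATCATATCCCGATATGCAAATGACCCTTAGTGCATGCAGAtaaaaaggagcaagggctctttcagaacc
Aldh1a7: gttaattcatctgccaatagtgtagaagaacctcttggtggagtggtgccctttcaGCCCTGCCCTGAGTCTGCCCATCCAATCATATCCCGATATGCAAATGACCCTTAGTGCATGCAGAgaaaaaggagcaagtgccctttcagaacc
Aligned, the 2 promoters were identical at 79.2% of columns. The shared run holds the octamer ATGCAAAT from position -56. On either strand, that motif was found within 250 bases before the start in 1.60% of the 32851 promoters of the table and in 3 of the 6 members that the table holds, Aldh1a1, Aldh1a2 and Aldh1a7. Members were counted by gene, and Aldh1a1 has another promoter entry, which is not shown. Because Aldh1a1 and Aldh1a7 hold the motif in the same shared run, their matches are not separate occurrences to set beside 1.60%. The motif CCAAT was found in 4 of these 6 members and in 33.8% of all promoters, and TATAAA was found in Aldh1a7 among the members and in 12.4% of all promoters. The TATAAA match of Aldh1a7 is not within the 150 bases printed here. The shared capitals also hold CCAAT. A match of letters is a description of the sequence and not evidence of binding.

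Aldh3a1 (ALDH3A1; mm9 chr11:61022244-61031918) encodes a cytosolic enzyme that is abundant in the cornea and oxidizes medium-chain and aromatic aldehydes as well as aldophosphamide. Its level was 0.237 FPKM in vehicle tumors, 0.676 after 2 cycles, 0.798 after 4 cycles, 1.34 after 7 cycles and 0.573 in regrowth. Each CPA group was higher than the one with fewer cycles, and regrowth tumors were below all 3 groups under treatment but above vehicle tumors. The difference from vehicle was 1.21, 1.42 and 2.09 after 2, 4 and 7 cycles and, at the 2-fold limit, 1.00 in regrowth on the log2 scale. Its range over the 5 groups, 2.09, was the widest of the 10 members. Regrowth tumors were 1.09 below those after 7 cycles, with mice of the same age.

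Aldh1a2 and Aldh1a3 encode cytosolic enzymes that make retinoic acid from retinal. Aldh1a2 (ALDH1A2; mm9 chr9:71063596-71144050) had 1.70 FPKM in vehicle tumors, 0.950 after 2 cycles, 0.714 after 4 cycles, 0.592 after 7 cycles and 0.670 in regrowth. It was lower with each larger number of cycles, and regrowth tumors were close to those after 4 cycles. The differences from vehicle were -0.78, -1.15 and -1.38 after 2, 4 and 7 cycles and -1.23 in regrowth, so that it lay past 2-fold in the last 3 of these 4 comparisons.

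Aldh1a3 (ALDH1A3; mm9 chr7:73535779-73572363) had 0.0630 FPKM in vehicle tumors, 0.274 after 2 cycles, 0.255 after 4 cycles, 0.279 after 7 cycles and 0.130 in regrowth. Its 3 levels under treatment lay within 0.09 of each other on the log2 scale, a plateau that ALDH1A1 and ALDH3A1 did not have. The difference from vehicle was 1.20, 1.12 and 1.22 after 2, 4 and 7 cycles and 0.50 in regrowth. Because ALDH1A2 was lower while ALDH1A1, ALDH1A3 and ALDH1A7 were higher, the summed level of these 4 ALDH1A genes was 1.98 FPKM in vehicle tumors, 1.62 after 2 cycles, 1.93 after 4 cycles, 1.90 after 7 cycles and 1.42 in regrowth.

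Aldh2 (ALDH2; mm9 chr5:122017696-122043833) encodes the mitochondrial enzyme that clears acetaldehyde formed from ethanol. It had 81.9 FPKM in vehicle tumors, 81.4 after 2 cycles, 79.4 after 4 cycles, 82.2 after 7 cycles and 77.4 in regrowth. Its vehicle level exceeded that of 98.3% of the genes that had any signal. The whole range over the 5 groups was 0.09 on the log2 scale, the narrowest of the 10 members. With every column rescaled to the same sum, ALDH2 was instead at -0.27 after 7 cycles against vehicle.

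Aldh1b1 (ALDH1B1; mm9 chr4:45811894-45817480) encodes another mitochondrial enzyme of acetaldehyde. Its level was 0.625 FPKM in vehicle tumors, 1.11 after 2 cycles, 1.20 after 4 cycles, 0.597 after 7 cycles and 0.529 in regrowth. The 2-cycle and 4-cycle groups were high, and the other 3 groups lay close to each other. The difference from vehicle was 0.74 and 0.84 after 2 and 4 cycles, short of 2-fold. Regrowth tumors were 1.04 below those after 4 cycles.

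Aldh3a2 (ALDH3A2; mm9 chr11:61058254-61080688) lies next to Aldh3a1 on the chromosome in the table's coordinates and encodes the membrane-bound fatty aldehyde dehydrogenase. It had 17.8 FPKM in vehicle tumors, 18.1 after 2 cycles, 17.6 after 4 cycles, 14.1 after 7 cycles and 15.6 in regrowth. The lowest value, after 7 cycles, was 0.34 below vehicle on the log2 scale. Aldh3a2 and Aldh3a1 thus differed in pattern in spite of their neighboring positions, since ALDH3A1 was highest after 7 cycles.

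Aldh3b1 (ALDH3B1; mm9 chr19:3913491-3929716) encodes an enzyme of aldehydes that arise from lipid peroxidation. Its level was 3.89 FPKM in vehicle tumors, 7.21 after 2 cycles, 6.98 after 4 cycles, 6.93 after 7 cycles and 4.58 in regrowth. All 3 groups under treatment were high and close to each other, with a difference from vehicle of 0.87, 0.83 and 0.82 on the log2 scale, and regrowth was 0.23 above vehicle. Of its 1875 windows of 50 bases, 163 also occurred in the transcript of the related gene ALDH3B3, which was not analysed here.

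Aldh7a1 (ALDH7A1; mm9 chr18:56685390-56721952) encodes antiquitin, which acts in lysine breakdown and on betaine aldehyde. It had 4.57 FPKM in vehicle tumors, 4.80 after 2 cycles, 5.88 after 4 cycles, 6.20 after 7 cycles and 6.85 in regrowth. It was the only member whose highest value was in regrowth, 0.57 above vehicle on the log2 scale.

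Against the vehicle group, 6 of the 10 members reached the level needed to be counted after 2, 4 and 7 cycles, and 5 did in regrowth. After 2 cycles, 0 members were past 2-fold, where 3.23% of 11711 genes were higher and 0.811% were lower. After 4 cycles, 0 members were higher, where 3.65% of genes were, and 1 was lower, ALDH1A2, where 1.6% of genes were. After 7 cycles, 1 member was higher, ALDH3A1, where 4.77% of genes were, and 1 was lower, ALDH1A2, where 3.09% of genes were. In regrowth, 0 members were higher, where 1.72% of genes were, and 1 was lower, ALDH1A2, where 2.3% of genes were. With 1 FPKM added in place of 0.1, none of these differences of ALDH1A2 and ALDH3A1 reached 2-fold.

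Without the minimum of 1 FPKM all 10 members entered. Then 2 members, ALDH1A3 and ALDH3A1, were past 2-fold higher after 2 cycles against 3.61% of genes. After 4 cycles 4 members were, ALDH1A1, ALDH1A3, ALDH1A7 and ALDH3A1, against 4.06% of genes. After 7 cycles 3 members were, ALDH1A1, ALDH1A3 and ALDH3A1, against 5.12% of genes, and in regrowth 2 were, ALDH1A1 and ALDH3A1, against 2.27% of genes. ALDH3A1 in regrowth was at the limit and, with the columns rescaled to the same sum, at 0.81. The median difference over the 10 members was 0.54, 0.83, 0.62 and 0.31 after 2, 4 and 7 cycles and in regrowth, beside 0.04, 0.06, 0.00 and -0.01 over all genes at 1 FPKM or more in the higher group. The 2 medians cover unlike sets, since the 10 members include those below 1 FPKM. After 4 cycles, ALDH1A1, ALDH1A3, ALDH1A7 and ALDH3A1, all below 1 FPKM, were at 1.12 to 1.62. The 6 members at 1 FPKM or more in the higher group lay between -1.15 and 0.84. The 4 comparisons with vehicle share the vehicle pools.

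**Figure D2:**
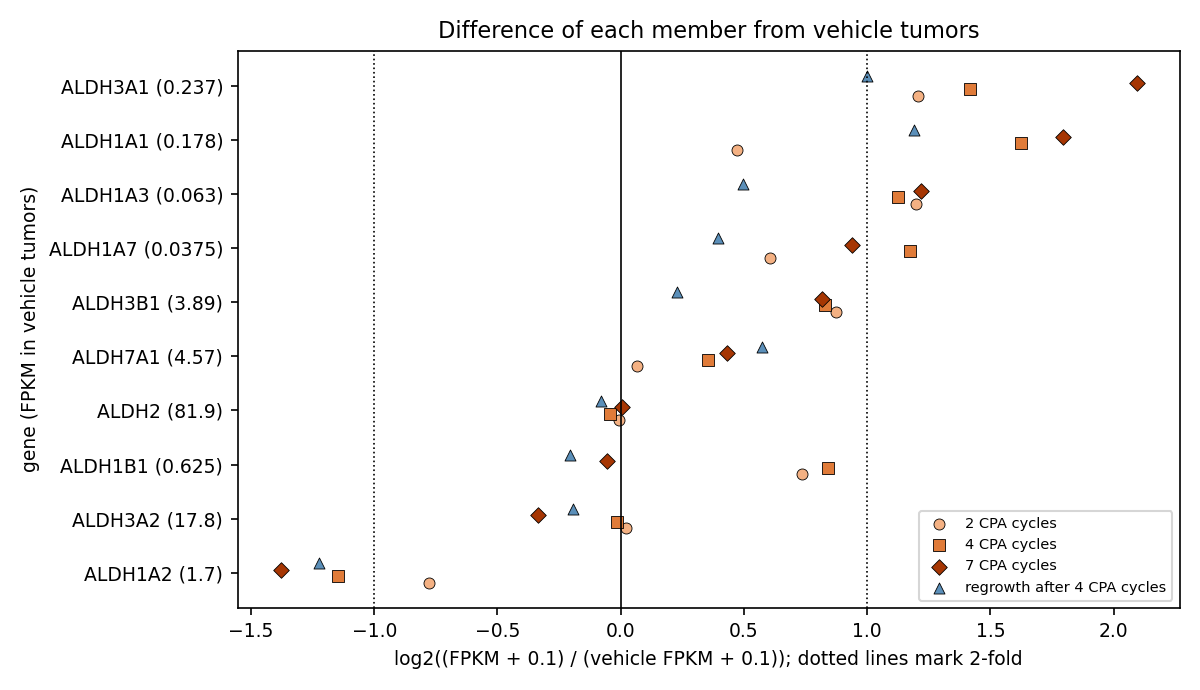
Difference of each member from vehicle tumors (x axis, log2 scale with 0.1 FPKM added) after 2, 4 and 7 CPA cycles and in regrowth (symbols), with the vehicle FPKM beside each gene name (y axis) and dotted lines at 2-fold. ALDH3A1 and ALDH1A1 reach 2.09 and 1.80 after 7 cycles, ALDH1A2 reaches -1.38, and ALDH2 stays within 0.08 of vehicle on this scale.

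Among the CPA groups, 0 members were past 2-fold between 4 and 2 cycles, where 1.2% of genes were in either direction, between 7 and 4 cycles, where 2.68% were, and between 7 and 2 cycles, where 5.88% were. ALDH1A1, below the minimum, was 1.15 higher after 4 than after 2 cycles and 1.32 higher after 7 than after 2 cycles. Regrowth tumors, which had also received 4 cycles, were compared with the 4-cycle tumors, which came from other mice. Mice of the regrowth group were 14 to 15 weeks old and those of the 4-cycle group 12 to 13 weeks old. Of the 5 members at 1 FPKM or more in the higher group, ALDH7A1 alone was higher in regrowth, at 0.22, where 43.5% of all genes at that level were. Without the minimum, 9 of 10 members were lower in regrowth, again with ALDH7A1 the exception. The share of all genes that were lower was not computed in that setting, where their median difference was -0.06. ALDH2, ALDH1A2 and ALDH3A2 were lower by only 0.04, 0.08 and 0.18 on the log2 scale. For ALDH1A2 and ALDH2, this direction turned when the columns were scaled to the same median. One member, ALDH1B1, was past 2-fold lower in regrowth than after 4 cycles, where 5.29% of genes were past 2-fold in either direction. Against 7 cycles, 1 member, ALDH3A1, was past 2-fold lower in regrowth, where 4.08% of genes were past 2-fold in either direction.

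FPKM is scaled to transcript length, so the levels of the members can be added. The 10 members summed to 111 FPKM in vehicle tumors, 115 after 2 cycles, 114 after 4 cycles, 113 after 7 cycles and 107 in regrowth. ALDH2 gave between 69.7% and 73.7% of this sum and ALDH3A2 between 12.5% and 16.1%. ALDH1A1 and ALDH3A1 together gave 0.373% of the sum in vehicle tumors and 1.94% after 7 cycles. Their summed level was 0.414 FPKM in vehicle tumors, 0.962 after 2 cycles, 1.55 after 4 cycles, 2.20 after 7 cycles and 1.11 in regrowth, which was 2.32, 3.75, 5.31 and 2.67 times the vehicle level. The 8 members other than ALDH2 and ALDH3A2 summed to 11.3 FPKM with vehicle and 16.8 FPKM after 4 cycles. The 2 members best known for CPA detoxification thus remained a small share of the family's RNA in whole tumors at every time point, while the total stayed between 0.963 and 1.04 times vehicle. With the columns rescaled to the same sum, the total was instead 0.845 times vehicle after 7 cycles and 0.822 times in regrowth.

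**Figure D3:**
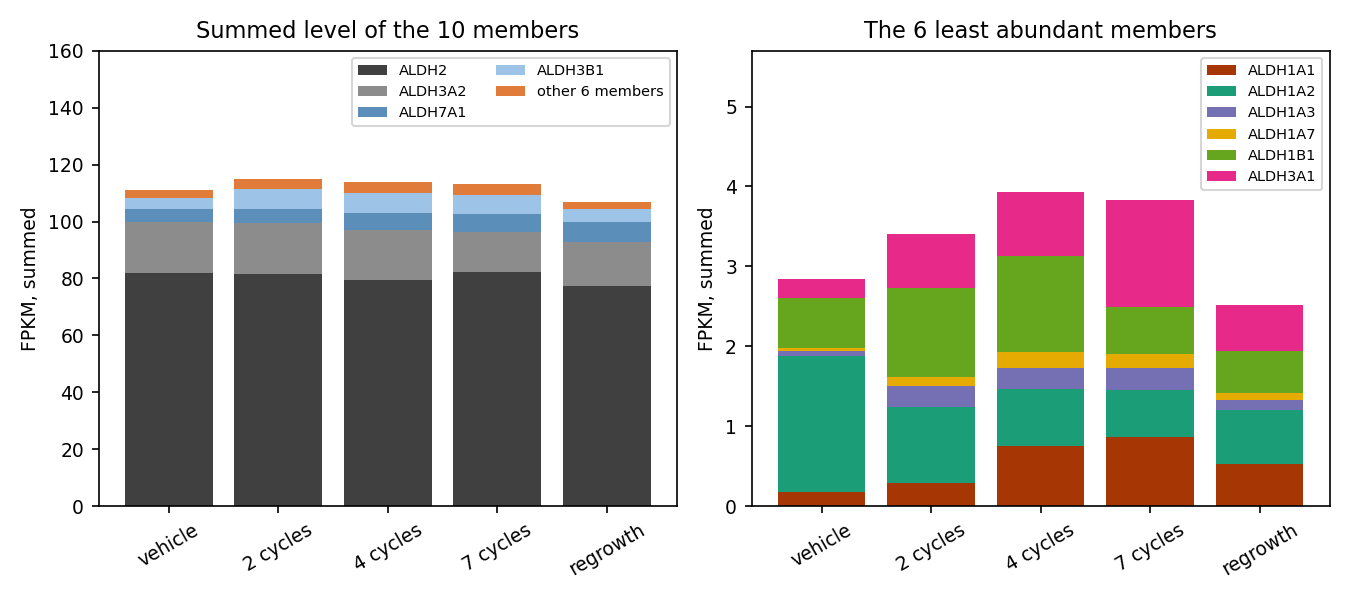
Summed FPKM of the 10 members (left) and of the 6 least abundant members (right) in each group, stacked by gene, with both y axes from 0. The total lies between 107 and 115 FPKM, and ALDH1A1 and ALDH3A1 grow from 0.414 FPKM in vehicle tumors to 2.20 FPKM after 7 cycles.

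Marker genes of several cell types moved with some members. The 10 fibroblast markers summed to 1053 FPKM in vehicle tumors, 664 after 2 cycles, 470 after 4 cycles, 305 after 7 cycles and 436 in regrowth. ALDH1A2 had the same order of the 5 groups. Of these 10 markers, 1, 4 and 5 were past 2-fold lower after 2, 4 and 7 cycles and 4 in regrowth. Collagens carried most of the sum. Without Col1a1, Col1a2 and Col3a1, a choice made after seeing the data, the other 7 summed to 117, 99.6, 86.3, 79.6 and 85.3 FPKM in vehicle tumors, after 2, 4 and 7 cycles and in regrowth. Dcn, a matrix proteoglycan, went the other way under treatment, at 24.3 FPKM in vehicle tumors and 0.18, 0.44 and 0.68 higher on the log2 scale after 2, 4 and 7 cycles. Pdgfra, a growth factor receptor, had 8.92 FPKM in vehicle tumors, and 10.6 and 10.7 FPKM after 2 and 4 cycles. No marker of any list used here was at 0 in all 5 groups. The part of the fibroblast markers in the ALDH1A2 levels was not tested.

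Liver is rich in ALDH1A1 and ALDH1A7. All 8 liver markers were past 2-fold higher after 4 cycles, 5 of 8 in regrowth and 2, Fgb and Cyp2e1, after 2 cycles. After 7 cycles only Alb was, the 8 markers summed to 11.2 FPKM, and ALDH1A1 was at its highest. ALDH1A7 and the liver markers both were highest after 4 cycles. Aldh8a1, a gene of liver and kidney, had 0.00664 FPKM in vehicle tumors, 0.128 after 4 cycles, 0.0195 after 7 cycles and 0.0797 in regrowth, the order of the liver markers in these groups. The part of the liver markers in the ALDH1A1 and ALDH1A7 levels was not tested in any group.

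Adipocyte markers summed to 48.5 FPKM in vehicle tumors, 171, 135 and 151 FPKM after 2, 4 and 7 cycles and 68.6 FPKM in regrowth. ALDH1A3, like this sum, was high in all 3 groups under treatment and lower in regrowth. Markers of cornified epithelium were high after 2 and 7 cycles, at 47.4 and 25.7 FPKM, against 2.68 to 7.29 FPKM in the other groups, and ALDH1A3 after 4 cycles was as high as in those 2 groups. Macrophage markers summed to 546 FPKM in vehicle tumors, 818 and 1063 FPKM after 2 and 4 cycles, 594 FPKM after 7 cycles and 448 FPKM in regrowth, with the 2-cycle and 4-cycle groups high as for ALDH1B1. Lyz2 alone, a lysozyme gene of myeloid cells, gave 440, 686, 933, 516 and 376 FPKM of these 5 sums. Without it, a choice made after seeing the data, the other 7 markers summed to 106, 131, 130, 77.9 and 72 FPKM in vehicle tumors, after 2, 4 and 7 cycles and in regrowth. Of the 8 macrophage markers, 0 were past 2-fold from vehicle after 2 cycles and 1, Lyz2, after 4 cycles, while Csf1r, the receptor for a macrophage growth factor, had 27.9 FPKM with vehicle and 28.3 FPKM with 2 cycles. A further listed marker, Adgre1, stands in the data under its older symbol Emr1 and was left out of these sums and counts. It had 6.23 FPKM in vehicle tumors, 9.12, 10.8 and 5.57 FPKM after 2, 4 and 7 cycles and 4.87 FPKM in regrowth. Neutrophil markers summed to 99.1 FPKM in vehicle tumors, 315, 341 and 498 FPKM after 2, 4 and 7 cycles and 80.3 FPKM in regrowth. ALDH3A1 had the same order as the neutrophil markers in the 4 groups other than regrowth, where ALDH3A1 was 2.42 times vehicle. Mmp9 was the 1 neutrophil marker lower in all 4 treated groups, and without it, a choice made after seeing the data, the other 10 summed to 53.1, 289, 310, 480 and 54.9 FPKM in vehicle tumors, after 2, 4 and 7 cycles and in regrowth, so that regrowth was close to vehicle. Of 11 epithelial markers, 0, 1, 6 and 4 were past 2-fold higher than vehicle after 2, 4 and 7 cycles and in regrowth, and the 7-cycle group, with the most, had the highest ALDH1A1 and ALDH3A1. Krt5, a keratin of basal epithelium, was 1 of the 8 markers listed for cornified epithelium. It had 0.350 FPKM in vehicle tumors, 6.99, 5.39 and 10.8 FPKM after 2, 4 and 7 cycles and 0.626 FPKM in regrowth. Krt5 was thus high in the 3 groups under treatment, as was ALDH1A3. After 4 cycles it was the 1 marker of its list past 2-fold higher than vehicle, while the median difference of the 8 was -0.14. The part of these cell types in the ALDH levels was not tested.

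**Figure D4:**
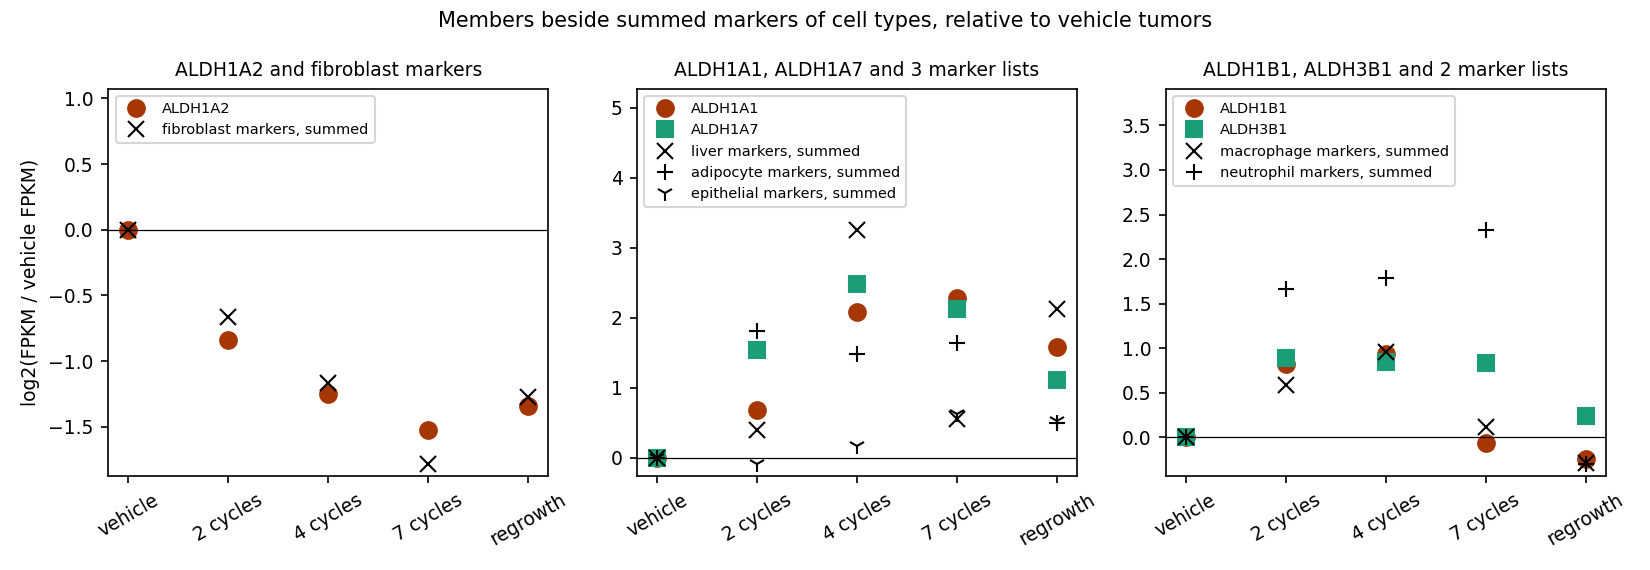
Members and summed cell type markers relative to vehicle tumors (y axis, log2 ratio of FPKM with nothing added) in the 5 groups (x axis). ALDH1A2 lies beside the fibroblast markers in each group, ALDH1A1 is highest after 7 cycles where the liver markers sum to 11.2 FPKM, and ALDH1B1 is high in the 2 groups where macrophage markers are high.

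For the members that reached 1 FPKM and ranged over at least 1 on the log2 scale, the 5 genes with the most similar profile were found among 12056 genes, by the root mean square difference of the centred log2 values over the 5 groups. For ALDH1A2 they were Rcn3, Padi2, Sorcs2, Atp2c2 and Wnt2, at 0.08 to 0.10. Rcn3, a chaperone of the endoplasmic reticulum, had 21.9 FPKM with vehicle and 9.82 FPKM with 7 cycles. Wnt2, a secreted signal, went from 1.10 to 0.413 FPKM.

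For ALDH1B1 the nearest were Treml2, Parvg, Cd86, Abca1 and Emr1, at 0.05 to 0.07. Cd86, a costimulatory molecule of antigen-presenting cells, went from 2.46 FPKM with vehicle to 4.41 FPKM with 4 cycles. Emr1, the older symbol of the gene for the macrophage antigen F4/80, had 6.23 FPKM with vehicle, 10.8 FPKM with 4 cycles and 4.87 FPKM on regrowth. For ALDH3A1 they were Prok2, Cd69, Aqp5, Bst1 and Limch1, at 0.04 to 0.15. Prok2, a secreted peptide that myeloid cells make, had 0.347 FPKM with vehicle, 1.90 FPKM with 7 cycles and 0.781 FPKM on regrowth. Aqp5, a water channel of glands, went from 1.47 to 6.73 FPKM and was at 3.81 FPKM in regrowth. Likeness over 5 values is a description and says nothing of shared control.

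Of the 10 other aldehyde dehydrogenases, 0 were past 2-fold in either direction from vehicle in any of the 4 comparisons, with 6 or 7 of them at 1 FPKM or more. They summed to 29.2 FPKM in vehicle tumors, 32.1 after 2 cycles, 31.4 after 4 cycles, 28.1 after 7 cycles and 27.2 in regrowth. Below the minimum, Aldh1l2, a mitochondrial enzyme of folate metabolism, had 0.625 FPKM with vehicle and 0.106 FPKM with 7 cycles, and Aldh3b2 had 0.0181 and 0.260 FPKM. Their direction differed, as it did between ALDH1A2 and ALDH3A1 among the members.

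Genes that activate CPA were mostly at low levels in the tumors. Of 20 listed, Por, the reductase that supplies electrons to microsomal P450 enzymes, was at 18.2 to 27.5 FPKM. Cyp3a11, a major P450 of mouse liver, was past 2-fold higher after 4 cycles at 3.78 FPKM against 0.255 FPKM in vehicle tumors, in the group where all 8 liver markers were higher, and was at 0.126 FPKM after 7 cycles. The higher group reached 1 FPKM for 1, 3, 1 and 2 of the 20 genes after 2, 4 and 7 cycles and in regrowth. Among these, only Cyp3a11 after 4 cycles was past 2-fold from vehicle, where 3.65% of all genes were higher. Without the minimum, 4 of the 20 were past 2-fold higher after 4 cycles and 3 in regrowth, against 4.06% and 2.27% of genes. Besides Cyp3a11 in both, these were Cyp2c70, Cyp3a25 and Cyp2c29 at 2.45, 1.71 and 1.20 after 4 cycles. In regrowth they were Cyp2c37 and Cyp2b13 at 1.49 and 1.07. The part of the liver markers in these levels was not tested.

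Of 17 other enzymes of aldehydes, 11 reached the minimum. Of these, 2 were past 2-fold higher after 7 cycles, where 4.77% of all genes were, and 0 in the other comparisons with vehicle, and 0 were lower. Akr1c13, an aldo-keto reductase, had 1.88 FPKM with vehicle and 4.66 FPKM with 7 cycles, and Cbr3, a carbonyl reductase, had 1.32 and 4.37 FPKM. Akr1a1, an abundant aldehyde reductase, was at 133 FPKM in vehicle tumors and at 152 to 174 FPKM in the other groups.

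Of 19 genes of retinoid handling and response, which surround the retinal oxidation by ALDH1A enzymes, 14 or 15 reached the minimum. Of these, 1 was past 2-fold higher after 2 cycles, 1 was higher and 1 lower after 4 and after 7 cycles, and 0 were higher and 1 was lower in regrowth. Of all genes, 3.23%, 3.65%, 4.77% and 1.72% were higher after 2, 4 and 7 cycles and in regrowth. In the same order, 0.811%, 1.6%, 3.09% and 2.3% were lower. Crabp2, which carries retinoic acid to its nuclear receptor, had 1.21 FPKM with vehicle and 3.38 FPKM with 7 cycles, while Crabp1, another carrier of retinoic acid, had 23.2 and 6.06 FPKM. Cyp26b1, which breaks down retinoic acid, was past 2-fold higher after 2 cycles from 0.684 FPKM in vehicle tumors, by 1.03 on the log2 scale. Stra6, a membrane receptor for retinol uptake, was past 2-fold lower in regrowth at 3.23 against 7.12 FPKM.

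Aldh3a1 is a target of the aryl hydrocarbon receptor. Of 10 genes listed for that receptor's battery, 4 in regrowth and 5 in the other groups reached the minimum. The list also holds the receptor itself, Ahr, and its partner Arnt, which both reached the minimum and are not targets. Of the genes that reached it, 1 was past 2-fold higher after 2 and after 4 cycles, where 3.23% and 3.65% of all genes were. After 7 cycles 2 were, where 4.77% of all genes were, and in regrowth 0 were, where 1.72% were. In each comparison 0 were lower. The median difference from vehicle of the 10 genes was 0.11, 0.06, -0.04 and -0.15 after 2, 4 and 7 cycles and in regrowth. Cyp1b1 had 0.833 FPKM in vehicle tumors, 2.86, 3.85 and 3.48 FPKM after 2, 4 and 7 cycles and 0.796 FPKM in regrowth. Nqo1, a quinone reductase, had 0.920 FPKM with vehicle and 2.24 FPKM with 7 cycles, the group where ALDH3A1 was highest. Tiparp, another target of the receptor, was lower in all 4 treated groups, with 5.78 FPKM in vehicle tumors, 4.39, 3.95 and 3.34 FPKM after 2, 4 and 7 cycles and 3.54 FPKM in regrowth. Arnt, the receptor's partner, was lower as well, at 6.53 FPKM after 7 cycles against 9.39 FPKM in vehicle tumors. Cyp1a1, the gene by which activity of the receptor is most often read, was at or below 0.0106 FPKM in every group. The part of this receptor in the ALDH3A1 levels was not tested.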

How the data were processed

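Strand-specific libraries of polyadenylated RNA from 13 tumor pools were made by the authors. According to the submitters' processing notes, reads were processed with TopHat2, featureCounts and edgeR on mouse build mm9, with versions and annotation not given in the sources used here. For each gene, the deposited FPKM is 1 value per group, which the authors computed over that group's pools. The table also holds the authors' ratios and p-values for each CPA group against vehicle, which were not used, and the vehicle values stand in it 4 times with the same numbers. Of 24197 lines, 27 held a date in place of a symbol and were left out. Start coordinates, counted from 0 in the table, were written from 1.

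Groups were taken from the sample labels. Differences, counts past 2-fold, sums and profile distances were computed in Python 3.11.15 with pandas 2.3.3 and numpy 2.4.6, and the calculations were tested on simulated data. All 10 members and up to 4 genes past 2-fold per list and comparison were to be named. The table gives no library depth, and FPKM values carry no SD and no n here. The members and gene lists were chosen with earlier results of these data known, and 1 gene of the retinoid list is not reported here. Promoter sequences and motif shares came from RefSeq entries of GRCm38.p6, and no coordinate was carried between the builds. Alternatives were other pseudocounts, minimum levels, a fold limit of 1.5 and other scalings of the columns.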

Additional observations from a re-analysis of the deposited data

How the results depend on the processing

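With 1 value per group, no pool could be left out and no model could be refitted, so those alternatives were not run. No paired analysis was possible because the table holds group values only. No member counted as past 2-fold was gained in the 9 comparisons with a pseudocount of 1 FPKM or 0.01 FPKM. With 1 FPKM, the counts of ALDH3A1 higher after 7 cycles and lower in regrowth than after 7 cycles, ALDH1A2 lower after 4 and 7 cycles and in regrowth, and ALDH1B1 lower in regrowth than after 4 cycles went from 1 to 0. ALDH1B1 also left when columns were scaled to one median, at -0.96 on the log2 scale. With a minimum of 0.5 FPKM, members past 2-fold higher than vehicle numbered 1, 2, 2 and 2 after 2, 4 and 7 cycles and in regrowth, and without a minimum 2, 4, 3 and 2; both added 1, ALDH1A1, for 4 and for 7 against 2 cycles. Over all genes, 473, 616, 925 and 467 were past 2-fold from vehicle after 2, 4 and 7 cycles and in regrowth, beside 256, 326, 478 and 178 with a pseudocount of 1 FPKM, 965, 1223, 1663 and 976 without a minimum, and 1130, 1490, 2516 and 1766 at 1.5-fold. At 1.5-fold, ALDH1B1 and ALDH3B1 made 2 higher after 2 and 4 cycles, ALDH3A1 and ALDH3B1 made 2 after 7 cycles, ALDH1A2 made 1 lower after 2 cycles, ALDH3A1 made 1 higher and ALDH1B1 1 lower for 7 against 4 and 7 against 2 cycles, and regrowth had 2 lower than after 4 cycles and 2 lower than after 7 cycles.

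The summed FPKM of the columns was 1.06, 1.11, 1.21 and 1.17 times vehicle after 2, 4 and 7 cycles and in regrowth. Rescaling every column to one sum (TPM) therefore shifted differences from vehicle downward, by up to 0.08, 0.16, 0.27 and 0.23 on the log2 scale and by less for genes at low levels. The share of higher genes among those past 2-fold went from 69.5% to 55.1% after 4 cycles, from 60.6% to 33.9% after 7 cycles and from 42.8% to 18.7% in regrowth against vehicle, from 58.6% to 43.0% for 7 against 4 cycles and from 43.9% to 25.9% for 7 against 2 cycles, and the members at 1 FPKM or more that were past 2-fold were the same as before; below that level ALDH3A1 in regrowth was no longer past 2-fold, at 0.81. The summed level of the 10 members over vehicle then was 0.979, 0.921 and 0.845 after 2, 4 and 7 cycles, below 1 where it had been above, and 0.822 in regrowth, and 0.993 and 0.982 after 2 and 4 cycles with columns scaled to one median. In all, 12 member differences changed sign under some scaling, and all of them were at most 0.08 in size before. The counting error of the lowest vehicle levels, those of ALDH1A7, ALDH1A3, ALDH1A1 and ALDH3A1, is not known.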
